A study of Mus musculus with 12 samples.

Results

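The genes described here mark the muscle coat and the pericytes of blood vessels: Acta2, Myh11, Tagln, Cnn1, Smtn, Mylk, Pdgfrb, Cspg4, Notch3 and Rgs5. A probe was taken as a member if the platform annotation gave it one of these symbols and no other, and the brightest probe stood for its gene. This gave 11 probes for 10 genes, out of 36227 probes and 18027 named genes on the array. Acta2 alone had a second probe, and a probe annotated to both Mef2d and Myh11 was left out.

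The samples were hearts of Balb/c mice, an inbred strain, for which the labels name no genetic change, age or sex. Each mouse was gavaged with 30 mg/kg of DMA, an abbreviation left unexpanded in the labels, or with DMSO, its vehicle. The 4 groups of 3 arrays were DMA at 24 h, DMSO at 24 h, DMA at 48 h and DMSO at 48 h. The labels call the arrays biological replicates, while the design text says that RNA was isolated from pooled hearts and gives no number of animals, so all p-values measure the spread between these arrays, which may be partly technical.

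Vascular smooth muscle cells contract when a calcium-activated kinase phosphorylates the myosin light chain, so that smooth muscle myosin pulls on smooth muscle actin. Actin-binding proteins such as calponin and transgelin tune and stabilise that filament, and the transcription factor SRF with its partner myocardin drives many of the genes involved. Pericytes wrap capillaries, are recruited by the growth factor PDGF-B through the receptor PDGFRβ, and depend with smooth muscle cells on Notch3. In the heart these cells regulate flow through coronary arteries and capillaries, and activated fibroblasts can also express Acta2 and Tagln.

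Values are log2 intensities, for which 1 unit is a doubling of signal. The sources do not give the normalization. The values were taken as scaled separately within each time, so levels are compared within a time. DMA 24 h replicate 3 stood apart: its Pearson's r across probes with the median of its time's other arrays was 0.742, against 0.927 to 0.963 for the other 11 arrays. On DMA 48 h replicate 3 the signal drifted with the probe number, a place on the array. Between 32230 and 35905 probes per array had a value, and gaps fell on Tagln, Mylk, Pdgfrb and Cspg4 among the brightest member probes. The heart label could be checked only in part: of 10 cardiomyocyte markers 3 (Ttn, Ryr2 and Myh6) had enough values for a test, all 12 arrays lacked a value for the 1 probe each of Actc1 and Atp2a2, and Nppa had no probe with that symbol. The mean level of the 2 cardiomyocyte markers measured on each array ranged from 4.62 to 7.82. For the 6 members measured on each array it ranged from 7.94 to 9.99. Intensities of different probes do not rank genes by abundance, so these 2 ranges are not compared. Of the other cardiomyocyte markers, Tnnt2 had a value on 2 arrays and Tnni3, Myl2 and Pln on 1 each. In whole tissue, fewer vessel cells and less RNA per cell cannot be told apart.

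No member passed the test at either time. Differences were fitted with limma over all arrays and adjusted over 35401 probes, and an adjusted p under 0.05 counted as a change. At 24 h 0 of 10 members passed, where 0% of all probes did. At 48 h 0 of 10 passed, again where 0% of all probes did. At an unadjusted p under 0.05 there were 0 members at either time, against 3.03% of all probes at 24 h and 1.4% at 48 h. On 11 arrays the median member lay 0.17 to 0.44 log2 units from the median of the other arrays of its time, and on DMA 24 h replicate 3 it lay 1.18 away. The members split in direction on that array, most had a negative difference at 48 h, and Rgs5 differed between replicate numbers.

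**Figure D1:**
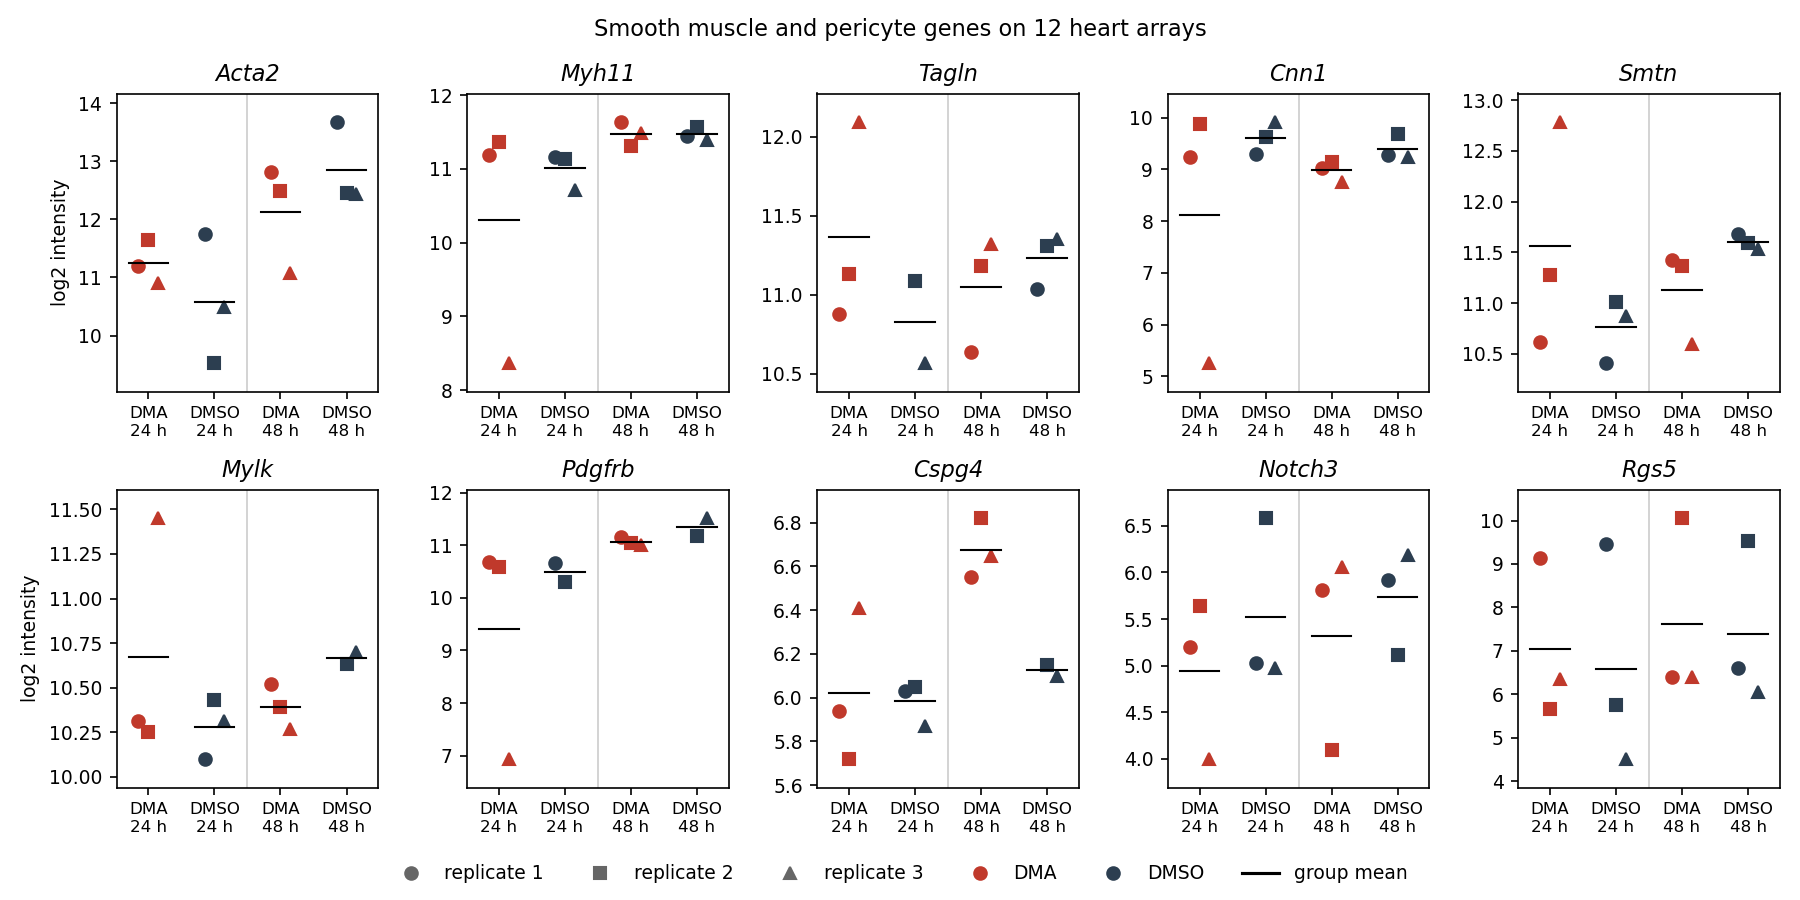
Log2 intensity of each gene's brightest probe (vertical axis, own range in each panel) on the 12 arrays, by group; symbols give the replicate number and bars the group mean. The replicate 3 triangle of DMA 24 h lies far below for Myh11, Cnn1 and Pdgfrb and above for Tagln, Smtn and Mylk, while Rgs5 is high in replicate 1 at 24 h and replicate 2 at 48 h in both treatments.

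The contractile filament genes came first. Acta2 encodes the smooth muscle isoform of actin. At 24 h it had log2 values of 11.19, 11.65 and 10.91 in DMA replicates 1 to 3, against 11.74, 9.53 and 10.49 in DMSO replicates 1 to 3. All DMA values lay within the wider DMSO range. DMA hearts averaged 11.25 ± 0.377 and DMSO hearts 10.59 ± 1.1 (SD, n = 3 each), a log2 difference of 0.66 (SE 0.627, limma adjusted p = 0.871), or 0.14 without DMSO 24 h replicate 2.

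Acta2 at 48 h read 12.81, 12.49 and 11.07 after DMA, against 13.67, 12.45 and 12.44 after DMSO. DMA replicate 3 was the lowest and DMSO replicate 1 the highest, and the other 4 arrays lay close together. The log2 difference was -0.73 (SE 0.627, limma adjusted p = 1), and -0.20 without DMA 48 h replicate 3. The second Acta2 probe disagreed with the first at 24 h, where it read 10.75 and 7.02 in DMA replicates 1 and 3 and had no value in replicate 2, against 10.99, 10.15 and 9.98 after DMSO. Its difference was -1.49 (SE 0.863), so the sign of the Acta2 difference at 24 h depended on the probe; without DMA 24 h replicate 3 it was 0.37 on the second probe and 0.83 on the first. At 48 h the second probe read 12.33, 11.58 and 12.11 after DMA, against 12.53, 12.12 and 12.13 after DMSO, and both probes had a negative difference.

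Myh11, the smooth muscle myosin heavy chain and the most specific marker of mature smooth muscle in the list, lay close together on 5 of the 6 arrays at 24 h. It had log2 values of 11.19, 11.36 and 8.37 after DMA, against 11.16, 11.14 and 10.72 after DMSO. DMA replicate 3 was the exception, and the other 5 arrays lay within 10.72 and 11.36. The difference was -0.70 (SE 0.645, limma adjusted p = 0.871) with all arrays and 0.27 (SE 0.25) without replicate 3. At 48 h the values were 11.63, 11.31 and 11.49 after DMA and 11.45, 11.57 and 11.39 after DMSO. These 6 arrays overlapped fully, with a difference of 0.01; the SE was 0.645 in the fit over all arrays and 0.244 in a fit on the 48 h arrays alone.

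Of the actin-binding members, Tagln encodes transgelin, which bundles actin filaments. Its values at 24 h were 10.88, 11.13 and 12.09 after DMA, against 11.09 and 10.57 in DMSO replicates 2 and 3; DMSO replicate 1 had no value. The excess lay in DMA replicate 3, and the difference was 0.54 (SE 0.45, limma adjusted p = 0.871) with that array and 0.17 without it. At 48 h Tagln read 10.64, 11.18 and 11.32 after DMA, against 11.04, 11.31 and 11.35 after DMSO, a difference of -0.18 (SE 0.402, or 0.29 in the fit on the 48 h arrays alone). The groups overlapped, and replicate 1 was the lowest of its group in both treatments.

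Cnn1 encodes calponin, which binds actin and restrains the myosin motor. It showed the largest gap of the list on a single array. At 24 h its log2 values were 9.24, 9.87 and 5.26 after DMA, against 9.29, 9.62 and 9.91 after DMSO. The fitted difference of -1.48 (SE 0.915, limma adjusted p = 0.871) rested on DMA replicate 3, and it was -0.05 (SE 0.311) without it.

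At 48 h Cnn1 read 9.03, 9.15 and 8.76 after DMA, against 9.27, 9.69 and 9.24 after DMSO. Every DMA array lay below every DMSO array, by a small margin. The difference was -0.42, with an SE of 0.915 in the fit over all arrays and 0.271 in the fit on the 48 h arrays alone (limma adjusted p = 1 in both).

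Smtn encodes smoothelin, a protein of the actin filaments of contractile smooth muscle. At 24 h it read 10.62, 11.28 and 12.78 after DMA, against 10.41, 11.01 and 10.87 after DMSO. The DMA array was higher in each same-numbered pair, and the difference of 0.80 (SE 0.503, limma adjusted p = 0.871) became 0.19 (SE 0.343) without DMA 24 h replicate 3. At 48 h the values were 11.42, 11.36 and 10.60 after DMA and 11.68, 11.59 and 11.53 after DMSO. Here the order was turned round, with every DMA array below every DMSO array and a difference of -0.47 (SE 0.503, limma adjusted p = 1), or -0.21 without DMA 48 h replicate 3. In the fit on the 48 h arrays alone the SE of the -0.47 was 0.309.

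Mylk, the kinase that phosphorylates the myosin light chain and so starts contraction, varied little. At 24 h it had 10.31, 10.25 and 11.45 after DMA, against 10.10, 10.43 and 10.31 after DMSO. Only DMA replicate 3 left the narrow band of the other 5 arrays, and the difference of 0.39 (SE 0.38, limma adjusted p = 0.871) became -0.00407 without it. At 48 h Mylk had 10.52, 10.39 and 10.27 after DMA, against 10.63 and 10.70 in DMSO replicates 2 and 3. The groups did not overlap, at a difference of -0.27 (SE 0.425, limma adjusted p = 1).

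Among receptors and surface proteins of mural cells, Pdgfrb encodes the receptor for PDGF-B. Its values at 24 h were 10.68, 10.59 and 6.94 after DMA, against 10.67 and 10.31 in DMSO replicates 1 and 2. The fitted difference was -1.09 (SE 0.968, limma adjusted p = 0.871) with DMA replicate 3 and 0.14 (SE 0.292) without it. At 48 h Pdgfrb read 11.15, 11.05 and 11.01 after DMA, against 11.17 and 11.51 in DMSO replicates 2 and 3, a difference of -0.27. The SE was 0.968 in the fit over all arrays and 0.295 in the fit on the 48 h arrays alone. All 3 DMA arrays lay under the lower DMSO array, DMA replicate 1 only just.

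Cspg4 encodes the NG2 proteoglycan on the pericyte surface. It was the only member whose DMA arrays all lay above the DMSO arrays at 48 h. The log2 values there were 6.55, 6.82 and 6.65 after DMA, against 6.15 and 6.10 in DMSO replicates 2 and 3, a difference of 0.55 (SE 0.351, limma adjusted p = 1). At 24 h it read 5.94, 5.72 and 6.41 after DMA, against 6.03, 6.05 and 5.87 after DMSO, a difference of 0.04 (SE 0.314) and of -0.15 without DMA 24 h replicate 3.

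Notch3, the Notch receptor of arterial smooth muscle, gave a low and variable signal. At 24 h it had 5.20, 5.64 and 4.0 after DMA, against 5.03, 6.58 and 4.97 after DMSO, and at 48 h 5.81, 4.10 and 6.06 after DMA, against 5.92, 5.11 and 6.19 after DMSO. The groups overlapped at both times, with differences of -0.58 (SE 0.654) and -0.41 (SE 0.654). At 48 h replicate 2 was the lowest array of its group in both treatments, and each DMA array lay below the DMSO array of the same number.

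Rgs5 encodes a regulator that shortens G protein signalling and is a widely used marker of pericytes. Its log2 values at 24 h were 9.13, 5.66 and 6.35 after DMA, against 9.46, 5.74 and 4.51 after DMSO. At 48 h they were 6.40, 10.05 and 6.40 after DMA, against 6.60, 9.53 and 6.04 after DMSO. High signal occurred on 4 arrays, replicate 1 of both treatments at 24 h and replicate 2 of both treatments at 48 h, and the other 8 lay at 6.60 or below. DMA minus DMSO was 0.48 (SE 1.48, limma adjusted p = 0.949) at 24 h and 0.23 (SE 1.48, limma adjusted p = 1) at 48 h.

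Rgs5 differed more between replicate numbers than between treatments. The mean of its same-numbered DMA and DMSO arrays was 9.29, 5.70 and 5.43 for replicates 1 to 3 at 24 h and 6.50, 9.79 and 6.22 at 48 h. These pair means spanned 3.87 log2 units at 24 h, a span reached by 0.705% of 14615 genes with a value on each 24 h array, and the median gene spanned 1.01. At 48 h the span was 3.57, reached by 0.563% of 14916 genes, with a median of 0.67. With the replicate number as a block the SE of the Rgs5 difference was 0.596 at 24 h and 0.247 at 48 h, on the 6 arrays of each time, and the differences were again 0.48 and 0.23 with limma adjusted p = 0.937 and 0.913. The labels do not say what same-numbered samples shared.

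Genes of like pattern were sought by Pearson's r over 11 arrays, DMA 24 h replicate 3 left out, after subtracting each gene's mean of that time. Among 7338 genes with a value on each array and a level above the median, Rgs5 was most closely followed by Retsat, Niban1, Tmem144, Tspan8 and Patl2, at r of 0.981, 0.98, 0.976, 0.973 and 0.963. Because the Rgs5 values fell into a high and a low cluster, r only ranks likeness here. Retsat, for example, had 9.93 and 10.37 in DMA and DMSO replicate 1 at 24 h, 10.70 and 10.38 in DMA and DMSO replicate 2 at 48 h, and 7.02 to 8.61 on the other 8 arrays. Rgs5 was singled out after its values were seen. For the mean of the 6 members with a value on each array, a profile in which Rgs5 varied most, the closest genes were Znrd1as, Osmr, Adgrl4, Qsox2 and B3galt2, at r of 0.931 to 0.969.

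**Figure D2:**
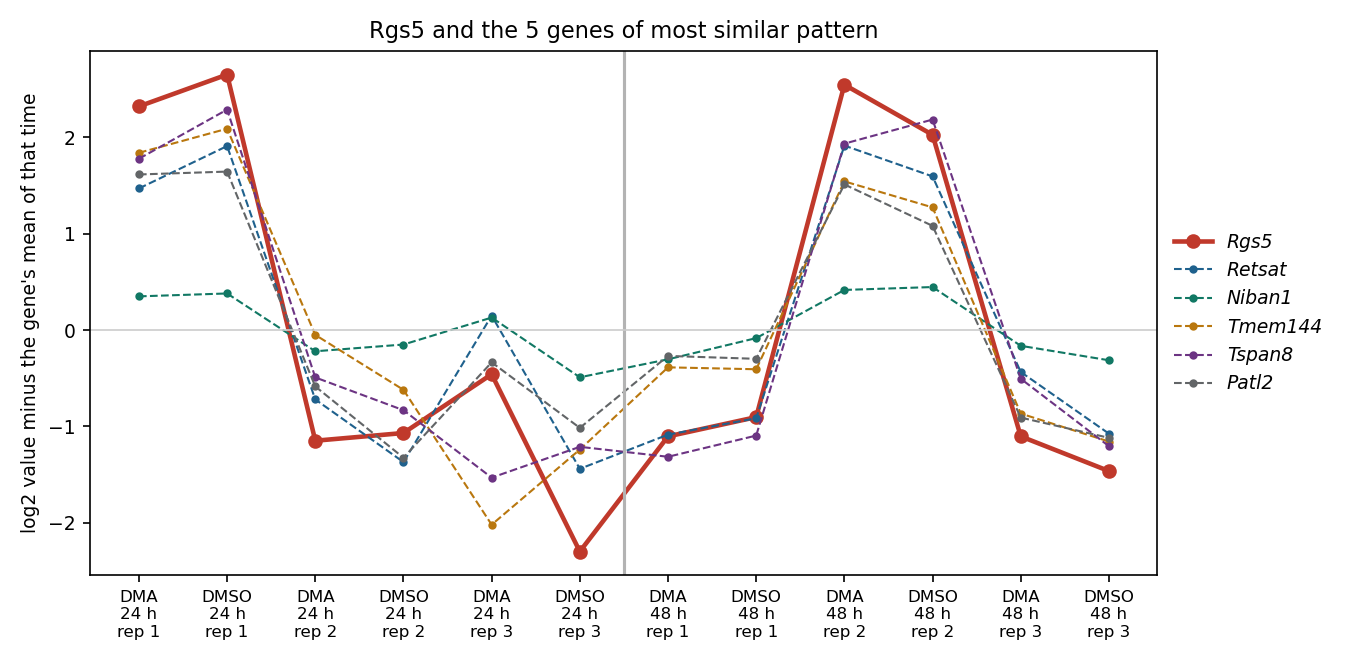
Log2 value minus the gene's mean of that time (vertical axis) for Rgs5 and the 5 genes of most similar pattern on the 12 arrays, DMA left of DMSO within each replicate number; the vertical line separates 24 h and 48 h. Rgs5 is high in replicate 1 at 24 h and replicate 2 at 48 h, in both treatments.

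DMA 24 h replicate 3 split the members. On it 4 of 10 members, Tagln, Smtn, Mylk and Cspg4, lay above all other 24 h arrays with a value, and 4, Myh11, Cnn1, Pdgfrb and Notch3, lay below them, while Acta2 and Rgs5 lay within. Across all genes 42.1% lay above and 31.7% below on this array, so the members' shares were near the background. Against the median of the other 24 h arrays the members ranged from -4.36 for Cnn1 to 1.91 for Smtn, with a median of 0.09, where the median over all genes was 0.24.

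The departure of Smtn was rare among probes of like level, and those of the other members were less so. Smtn at 1.91 exceeded 98.8% of the 1295 tested probes within 0.5 log2 units of its level. Mylk exceeded 82.8% of probes of like level, Tagln 82.7% and Cspg4 53.8%. Cnn1 at -4.36 was undercut by 12.1% of probes of like level and Notch3 at -1.21 by 12%. Pdgfrb at -3.69 was undercut by 22.9% and Myh11 at -2.78 by 28.4%. Genes of the same contractile machinery, such as Tagln and Cnn1 or Mylk and Myh11, lay on opposite sides of the other arrays there. The 2 Acta2 probes parted too, 1 at -0.29 and the other at -3.43 from the median of the other arrays.

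**Figure D3:**
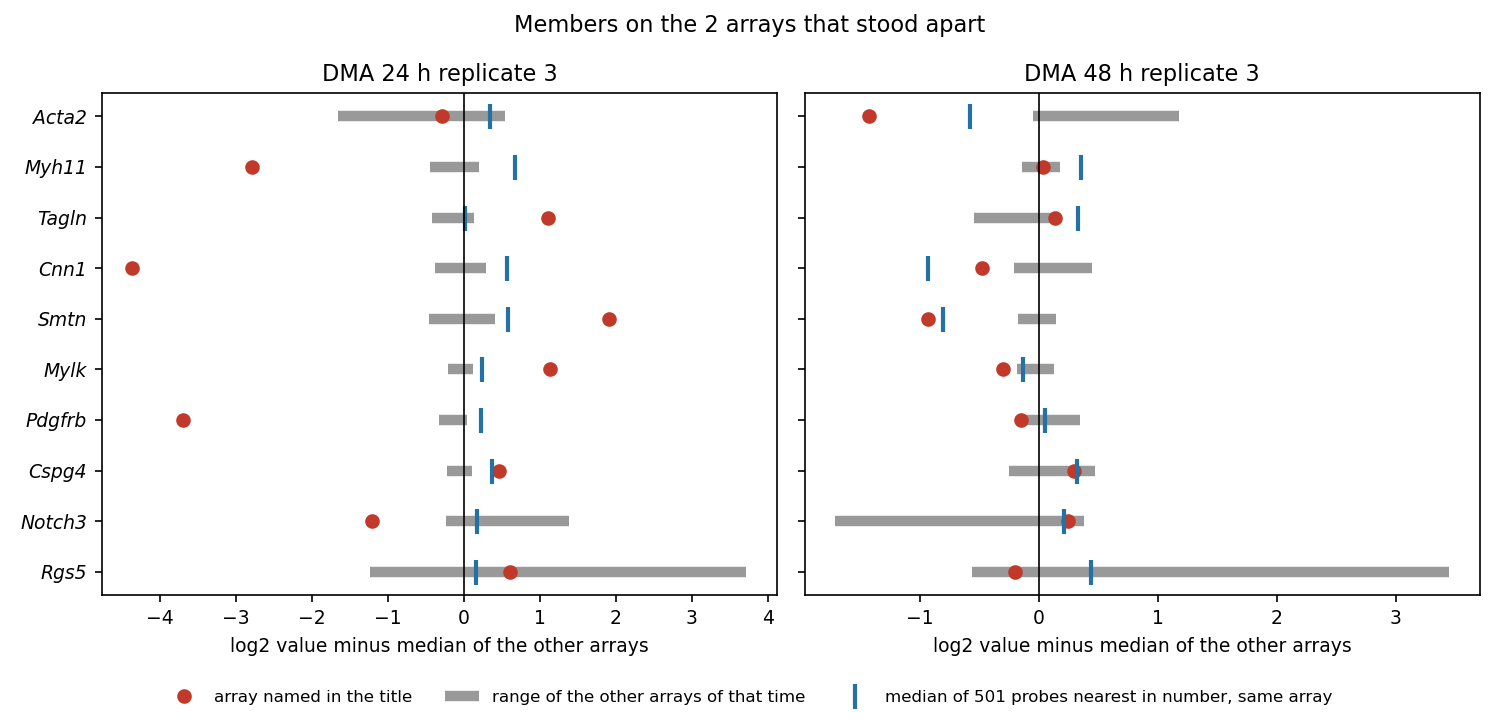
Log2 value on the named array minus the median of the other arrays of that time (red points), with the range of the other arrays (grey bars) and the median of the 501 probes nearest in probe number on the same array (blue ticks). On DMA 24 h replicate 3 Cnn1 lies at -4.36 and Smtn at 1.91; on DMA 48 h replicate 3 Smtn at -0.93 lies next to its neighbouring probes at -0.80.

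At 48 h the members leaned to lower signal after DMA, without a call. Of 10 members 7 had a negative and 3 a positive difference, with a median of -0.27, where the median over 17611 genes was 0.01 and 51.4% were positive. For Cnn1, Smtn, Mylk and Pdgfrb all DMA arrays lay below all DMSO arrays, which is 4 of 10 members, where 2.33% of all genes did so. Mylk and Pdgfrb had only 2 DMSO values, and among genes with 3 DMA and 2 DMSO values the share was 5.57%, against 1.73% with 3 and 3. Cspg4 alone lay above, where 3.95% of all genes and 6.05% of those with 3 DMA and 2 DMSO values did. At 24 h 0 of 10 members had groups that did not overlap, where 4.42% of genes lay above and 3.29% below after DMA, 7.71% in all. With the trend along probe numbers removed, 1 member, Tagln, lay above at 24 h, where 3.76% of genes did.

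The lean was set beside the drift along probe numbers on DMA 48 h replicate 3. On that array 5 of 10 members, Acta2, Cnn1, Smtn, Mylk and Pdgfrb, lay below the other 48 h arrays and 0 above, where 26.6% of genes lay below and 32.4% above. Smtn lay 0.93 below the median of the other 48 h arrays on that array, while the 501 probes nearest to it in number had a median of -0.80; for Cnn1 the values were -0.48 and -0.93, and for Acta2 -1.43 and -0.58. When the running median along probe numbers was subtracted from every array, 1 of 10 members, Mylk, lay below in all DMA arrays, where 2.74% of genes did, and 1, Cspg4, lay above, where 2.63% did. The differences were then nearer 0 for Cnn1 (-0.07), Smtn (-0.14), Pdgfrb (-0.19), Mylk (-0.21), Acta2 (-0.52), Cspg4 (0.27) and Rgs5 (0.07). They were lower for Myh11 (-0.22), Tagln (-0.30) and Notch3 (-0.51). The members' median was then -0.20, with 8 of 10 negative, against -0.04 over all genes, so fewer groups were apart while the median stayed negative. Without DMA 48 h replicate 3 the members' median was -0.21, with 7 of 10 again negative.

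Same-numbered pairs at 48 h regroup the same arrays, so their lean is not a second line of evidence. The median of DMA minus DMSO over members was -0.24 in pair 1 (7 members), -0.18 in pair 2 (10 members) and -0.28 in pair 3 (10 members), against -0.01, 0.02 and 0.09 over all genes. Of 7 members with 3 pairs, Tagln, Cnn1, Smtn and Notch3 were negative in each, where 9.77% of genes with 3 pairs were, and 0 were positive in each, where 15.1% were. The pair differences were -0.24, -0.54 and -0.48 for Cnn1 and -0.26, -0.22 and -0.93 for Smtn, while for Tagln they were -0.40, -0.13 and -0.03. Myh11 went both ways, at 0.18, -0.26 and 0.10, and Cspg4 was positive in both of its pairs, at 0.67 and 0.54.

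The pairs at 24 h did not share a direction, with 5 of 9, 6 of 10 and 6 of 9 members positive in pairs 1 to 3. In pair 1 the members' median was 0.01 (9 members) and in pair 2 it was 0.13 (10 members), against -0.01 in each over all genes; in pair 3 it was 0.54 (9 members), against 0.28. Smtn alone was positive in 3 of 3 pairs, at 0.21, 0.27 and 1.91, which is 1 of 8 members with 3 pairs, where 12.4% of genes were, and 0 were negative in each, where 9.48% were. Acta2 had the widest spread of pairs 1 and 2, at -0.55 and 2.12. In pairs 1 and 2 Myh11 differed by 0.04 and 0.22, Cnn1 by -0.05 and 0.25 and Pdgfrb by 0.01 and 0.28.

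**Figure D4:**
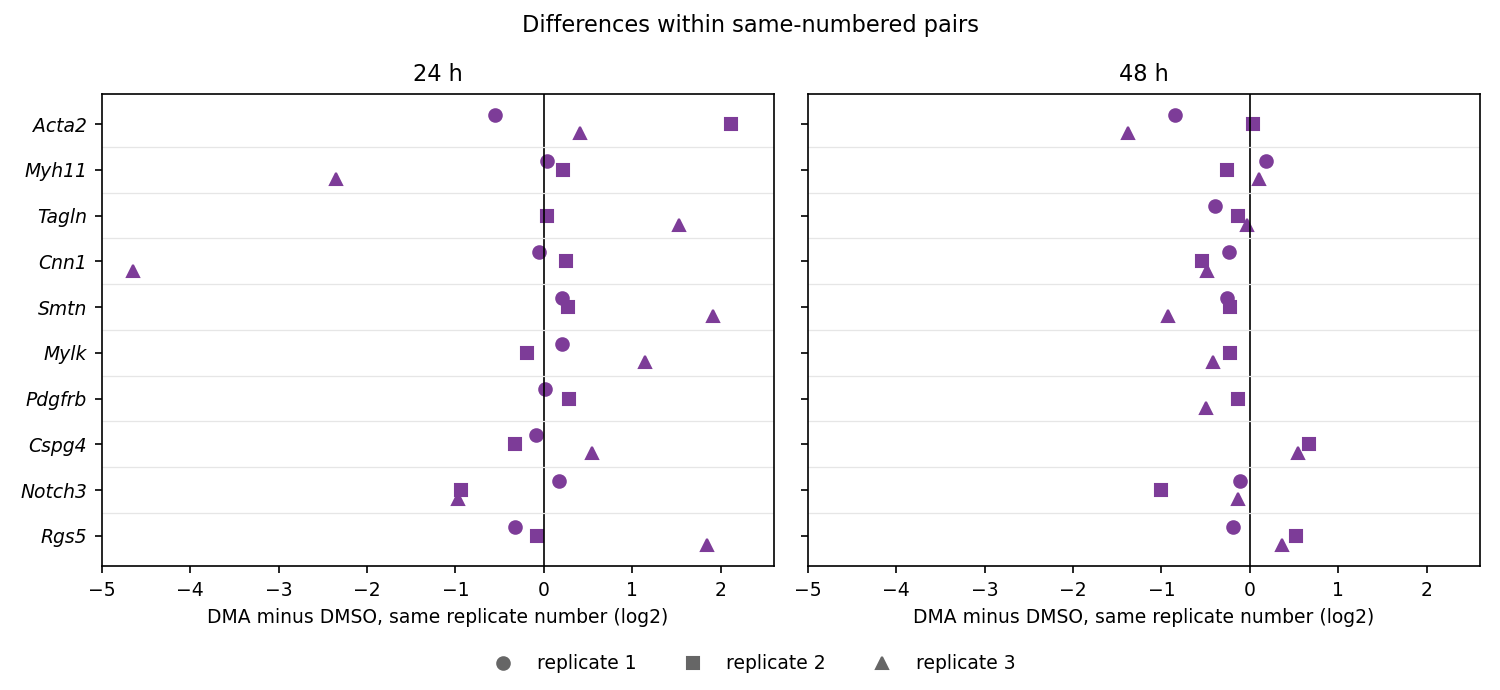
DMA minus DMSO in log2 units (horizontal axis) within same-numbered pairs for each member at 24 h (left) and 48 h (right); symbols give the replicate number, and a missing symbol means that 1 array of the pair had no value. At 24 h the replicate 3 pair of Cnn1 lies at -4.65, and at 48 h the pairs of Tagln, Cnn1, Smtn and Notch3 all lie below 0.

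The DMA effect was not found to differ between the times for any member. The test of the difference called 0 of 10 members and 0% of all probes, with 0 members and 1.96% of probes at an unadjusted p under 0.05. The smallest p among members was that of Smtn, whose effect was lower by 1.27 log2 units at 48 h than at 24 h (-1.27, SE 0.711, limma adjusted p = 0.999). Acta2 followed at -1.39 (SE 0.887, limma adjusted p = 0.999), and on its second probe the value was 1.24 (SE 1.16).

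Vehicle hearts at the 2 times were compared only as a description, because the normalization is not given and may differ between the times. The DMSO mean at 48 h minus that at 24 h had a median of 0.42 over all genes and 0.43 over the members. Acta2 stood at 2.27, well above that shift, and the other 9 members lay between -0.21 for Cnn1 and 0.85 for Pdgfrb. The second Acta2 probe had means of 12.26 ± 0.237 at 48 h and 10.37 ± 0.543 at 24 h in vehicle hearts (SD, n = 3 each).

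The wider programme was read from a list of 79 genes, of which 67 were tested, and 0 passed at either time. At 24 h 38 had a positive and 29 a negative difference (median 0.13, against 0.09 over all genes). The 4 of smallest p were Hey2, a Notch target, at 0.90 (SE 0.396), Pdgfb, the ligand of Pdgfrb, at 1.14 (SE 0.509), Vcl, which encodes vinculin, at -1.82 (SE 0.844), and Des, which encodes desmin, at 1.57 (SE 0.778), each with a limma adjusted p of 0.871. Pdgfb read 8.97, 9.14 and 8.67 after DMA, against 9.18, 6.97 and 7.22 after DMSO. All 4 rested in part on DMSO 24 h replicate 2: without it Hey2 differed by 0.52, Pdgfb by 0.73, Vcl by -0.02 and Des by 0.81. Hey2 and Vcl had no value on DMSO 24 h replicate 1, so for them only DMSO replicate 3 was then left.

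At 48 h 24 of the 67 genes had a positive and 43 a negative difference (median -0.16, against 0.01 over all genes). Contractile genes and SRF targets were negative in 10 of 11 cases (median -0.24), other pericyte genes in 8 of 11 (median -0.17), and genes of myosin phosphorylation in 3 of 7 (median 0.20). Genes of transcriptional control were negative in 5 of 8 cases (median -0.18) and Pdgf and Notch genes in 7 of 13 (median -0.05). Genes listed as paralogs of the members were negative in 10 of 17 cases (median -0.03). Cspg5 was put in that list by its name, and its homology to Cspg4 was not checked. Over all genes 51.4% were positive. Without DMA 48 h replicate 3 the 67 genes had a median of -0.04, and the contractile genes were negative in 7 of 11 cases (median -0.10). The 4 of smallest p each had a limma adjusted p of 1. They were Cspg5, which shares a family name with Cspg4, at 1.92 (SE 1.01), and Ppp1r12b, a subunit of myosin phosphatase, at -0.68 (SE 0.426). The others were Dll4, a Notch ligand, at -0.79 (SE 0.634) and Heyl, a Notch target, at -0.40 (SE 0.344). Cspg5 differed by 0.48 without DMSO 48 h replicate 2, whose value was -0.66, and Ppp1r12b, Dll4 and Heyl by -0.34, -0.47 and -0.17 without DMA 48 h replicate 3.

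At 48 h the markers of some neighbouring cell types leaned the same way as the members, and no marker passed the test. Over all genes the median was 0.01 and 51.4% were positive. Endothelial markers were negative in 9 of 9 tested cases (median -0.53), and the mean level of the 6 measured on each array ranged from 8.68 to 10.32 after DMA and from 9.67 to 10.49 after DMSO. For the 6 members measured on each array the ranges were 9.06 to 9.74 after DMA and 9.47 to 9.99 after DMSO. Fibroblast markers were positive in 5 of 9 cases (median 0.15). Macrophage markers were negative in 4 of 6 cases (median -0.18) and mesothelial markers in 3 of 6 (median -0.08). Cardiomyocyte markers were negative in 1 of 3 cases (median 0.12) and adipocyte markers in 0 of 3 (median 0.09). Without DMA 48 h replicate 3 the endothelial median was -0.12, with 6 of 9 negative, and the fibroblast median 0.20, with 9 of 9 positive. The macrophage median was then 0.29, with 5 of 6 positive. The part of these cell types in the members' values was not tested.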

How the data were processed

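Per the labels' protocols, RNA was extracted from myocardium, and polyA RNA was copied into biotinylated cRNA, hybridised to 1-colour arrays and stained with streptavidin-Cy5. The deposited table held log2 values made by the authors; scanner software, background correction and normalization are not given in the sources used here. Depth has no equivalent on arrays, and the number of arrays limits the precision.

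Probes with at least 2 values in each of the 4 groups were tested (35401 of 36227) with limma 3.58.1 in R 4.3.3, with 1 mean per group over 12 arrays and Benjamini-Hochberg adjustment. Gene-level counts used 17611 genes, by their brightest probe. Python 3.11.15 with matplotlib 3.10.9 made the plots. Alternatives were a replicate block, a fit within each time, quantile normalization, filters on low and missing values, array weights, left-out arrays, other probes, and removal of the trend along probe numbers. The last one and the second Acta2 probe were chosen after seeing the data.

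The labels do not say that equal replicate numbers pair samples. Deviations from the group means were correlated between DMA and DMSO arrays, weakly at 24 h. For equal numbers r was 0.11 to 0.186 at 24 h and 0.266 to 0.329 at 48 h. For unequal numbers it was -0.101 to -0.0117 at 24 h and -0.208 to -0.0836 at 48 h. Because each group's mean was subtracted, the deviations within a group sum to 0. Positive r for equal numbers thus brings negative r for unequal ones on average, so the negative values are not separate evidence. What equal numbers shared was not tested.

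All members were named. Of the pathway genes the 4 of smallest p at each time were named, and the 5 genes of most similar pattern. Members, lists and rules were chosen with earlier results of these data known.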

Additional observations from a re-analysis of the deposited data

Results flagged for a closer look

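Smtn differed in direction between the times: DMA lay above DMSO in 3 of 3 same-numbered pairs at 24 h and below in 3 of 3 at 48 h. Of genes with 3 pairs, 12.4% were positive in each at 24 h and 9.77% negative in each at 48 h. Smtn was picked from 10 members for this pattern, and the share of genes with both was not counted. The fitted difference of the Smtn DMA effect, 48 h minus 24 h, was -1.27 (SE 0.711, limma unadjusted p = 0.102, adjusted p = 0.999), so the difference did not pass its test. Leaving out DMA 24 h replicate 3 gave -0.66, leaving out DMA 48 h replicate 3 gave -1.01, and leaving out both gave -0.40; it was -0.74 with the trend along probe numbers removed.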

How the results depend on the processing

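No member passed under any alternative listed in the processing account. The count of passing probes stayed at 0 with the replicate block, within each time, after quantile normalization, with either filter, with array weights and with the trend removed. Without both arrays that stood apart it was 3 at 48 h (Usp42, Tmem108 and Polr3k, identified from this result). With 1 array left out it ranged from 0 to 14 at 24 h (9 when DMA 24 h replicate 1 was left out and 14 for DMA 24 h replicate 2, in both cases probes with DMA replicate 3 as their only DMA value), from 0 to 1 at 48 h and from 0 to 4 for the difference between the times. At an unadjusted p under 0.05, the fit with the replicate block, made within each time, gave 523 probes at 24 h and 1466 at 48 h, against 501 and 778 within each time without the block and 1071 and 494 in the fit over all arrays. The block changed no call.

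The members' median at 24 h was 0.39 without probes below the median level, -0.05 over probes with 12 values, 0.11 with array weights and 0.04 with all probes of a gene averaged, and ranged from -0.29 to 0.33 with 1 array left out. At 48 h it was -0.42 over probes with 12 values and ranged from -0.32 to -0.21.

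Signs turned at 24 h for Acta2 on its second probe (-1.49), Myh11 with array weights (0.24), Pdgfrb with the replicate block (0.14) and with array weights (0.10), and Cspg4 with array weights (-0.10). Without both arrays that stood apart Myh11, Mylk, Pdgfrb and Cspg4 turned, at 0.27, -0.00407, 0.14 and -0.15. At 48 h Myh11 turned with quantile normalization (-0.04), array weights (-0.02) and the trend removed (-0.22). With 1 array left out the 24 h ranges crossing 0 were -1.22 to 0.27 for Myh11, -0.00407 to 0.60 for Mylk, -1.72 to 0.14 for Pdgfrb, -0.15 to 0.19 for Cspg4 and -0.56 to 1.92 for Rgs5. At 48 h they were -0.07 to 0.09 for Myh11, -0.32 to 0.02 for Tagln, -0.78 to 0.20 for Notch3 and -0.99 to 1.30 for Rgs5. The cause was not tested for these turns. Background signal was not used here, so no floor can be given for Notch3 or Cspg4.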
